A study of Mus musculus with 4 samples.

Results

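The genes described are 10 that make peptide display on MHC class I: the light chain B2m, the heavy chains H2-K1, H2-D1 and H2-T23, the peptide supply genes Tap1, Tap2 and Tapbp, and the immunoproteasome subunits Psmb8, Psmb9 and Psmb10. They were taken by name from 24421 gene columns, and each was found in the count tables of all 4 libraries. Their UMIs (unique molecular identifiers, each standing for 1 captured transcript) were summed per library over 687 of 781 cells, chosen by Jchain, the joining chain of secreted IgA and IgM, which normal plasma cells make in bulk. Wild-type cells entered with Jchain at 5% or more of their UMIs (106 of 163 cells), and myeloma cells entered below 5%. That kept 185 of 185 lymph node cells and 226 of 245 and 170 of 188 cells of the myeloma marrow libraries.

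All libraries held CD138+ B220- sorted cells of C57/BL6 background, profiled cell by cell on the ddSEQ droplet system with the SureCell WTA 3′ kit. The myeloma cells, titled VQ-D2 in all 3 libraries and written VQ from here on, carry V{kappa}*MYC, a MYC transgene switched on in germinal centre B cells, together with Nras LSL Q61R/+, an oncogenic Nras allele released by IgG1-Cre. The labels call them donor-derived and give that genotype as the recipient's, with multiple myeloma as the disease state. There was 1 VQ lymph node library, 2 VQ bone marrow libraries and 1 library of wild-type bone marrow plasma cells from an age-matched control. Ages were not given. The meaning of the shared D2 was not given, nor whether the VQ marrow libraries came from different animals or the lymph node shared an animal with either, so p-values reflect only how far these libraries vary, and that variation may be technical. The recipients' own plasma cells could also fall in the VQ sort.

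MHC class I molecules carry short peptides from the cell's own proteins to its surface, where cytotoxic T cells read them. Proteasomes cut the peptides, the TAP1-TAP2 transporter pumps them into the endoplasmic reticulum, tapasin holds an empty class I molecule next to the transporter, and a heavy chain leaves for the surface only when it has bound β2-microglobulin and a peptide. Interferon signalling through IRF1, together with NLRC5 at the promoter, raises most of these genes, and it also swaps the catalytic subunits of the proteasome for the inducible ones that form the immunoproteasome. Plasma cells, which fold large amounts of antibody, load their proteasomes heavily.

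In the GENCODE annotation of GRCm38, the assembly also called mm10, 8 of the 10 genes lie in the MHC region of chromosome 17. B2m lies at chr2:122147686-122153083 on the plus strand and Psmb10 at chr8:105935735-105938444 on the minus strand. Psmb9, Tap1, Psmb8 and Tap2 sit side by side from chr17:34181987 to chr17:34216321, and Psmb9 and Tap1 point away from each other with start regions that overlap at chr17:34187553-34187764. On the opposite strand Patl2 overlaps all of B2m, and A930015D03Rik all of H2-T23, and Zbtb22 overlaps Tapbp on the same strand; the sources do not say whether counting used strand, so reads of such neighbours cannot be told apart. RefSeq promoter windows of GRCm38.p6, from 250 bases before to 50 bases after the annotated start, were matched for 9 of the 10 genes; Tap2 was not among them. The 4 below are shown because they belong to the light chain, to the 2 classical heavy chains, and to Tap1, whose window shares 275 bases with that of Psmb9. Capitals mark, on either strand, the interferon regulatory factor core AANNGAAA, the kB site GGGATTCCC and the CCAAT box.
B2m, chr2:122147437-122147736, plus strand: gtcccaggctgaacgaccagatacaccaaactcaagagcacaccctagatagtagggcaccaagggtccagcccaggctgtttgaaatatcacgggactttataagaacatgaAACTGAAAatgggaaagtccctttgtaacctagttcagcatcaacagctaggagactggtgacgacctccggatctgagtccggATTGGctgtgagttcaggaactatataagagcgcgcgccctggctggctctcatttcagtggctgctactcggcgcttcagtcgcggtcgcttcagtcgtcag
H2-K1, chr17:34000298-34000597, minus strand: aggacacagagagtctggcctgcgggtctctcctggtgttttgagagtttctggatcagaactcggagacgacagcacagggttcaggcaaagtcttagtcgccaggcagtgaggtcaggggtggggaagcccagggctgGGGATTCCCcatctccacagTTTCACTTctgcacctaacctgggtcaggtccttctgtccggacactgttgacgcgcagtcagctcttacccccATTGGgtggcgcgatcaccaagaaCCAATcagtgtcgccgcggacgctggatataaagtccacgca
H2-D1, chr17:35262844-35263143, plus strand: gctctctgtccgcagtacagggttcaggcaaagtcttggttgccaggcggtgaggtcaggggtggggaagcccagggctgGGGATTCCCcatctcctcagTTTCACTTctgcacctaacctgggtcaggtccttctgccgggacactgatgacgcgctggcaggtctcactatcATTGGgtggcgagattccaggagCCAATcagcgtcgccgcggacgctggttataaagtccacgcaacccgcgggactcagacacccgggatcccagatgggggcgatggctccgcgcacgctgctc
Tap1, chr17:34187306-34187605, plus strand: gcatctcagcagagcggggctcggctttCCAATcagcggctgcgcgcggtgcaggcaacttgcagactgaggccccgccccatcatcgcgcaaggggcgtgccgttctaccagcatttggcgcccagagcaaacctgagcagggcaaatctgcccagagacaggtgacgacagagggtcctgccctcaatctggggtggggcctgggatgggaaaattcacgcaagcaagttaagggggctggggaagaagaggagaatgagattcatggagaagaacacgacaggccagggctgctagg
The interferon regulatory factor core was in the windows of B2m, H2-K1, H2-D1 and H2-T23, 4 of 9, against 24.2% of 27018 RefSeq promoter windows of the same length. The kB site was in 2 of 9, H2-K1 and H2-D1, against 0.370% of all windows, and the CCAAT box in 7 of 9, against 37.9%. Within a window, none of the 17 matches overlapped another. The CCAAT matches of Tap1 and Psmb9 are the same bases, read in both windows within the 275 they share. The 7 of 9 therefore counts that box for both genes. Aligned with gaps, the windows of H2-K1 and H2-D1 had 218 identical bases in 361 columns (60.4%), and those of H2-K1 and H2-T23 had 178 in 352 (50.6%). The kB site and the core are spaced alike in H2-K1 and H2-D1, with the kB site starting at -110 from the annotated start in H2-K1 and at -170 in H2-D1. These windows are thus offset, and gap columns count in the percentages, so 60.4% understates how alike the paired bases are. The kB matches lie in a run of nearly the same bases in both windows, so 2 of 9 does not stand for independent finds. A match of letters is a description of the window and not a measured binding site.

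The gated sums held 803752 UMIs in VQ lymph node cells, 1045005 and 444437 in VQ marrow replicates 1 and 2, and 204002 in wild-type marrow plasma cells, and no cell barcode was shared between any of the 6 pairs of libraries. Of 13 plasma cell markers, 11 to 13 had UMIs in each library; Cd38 and Tnfrsf13b were at 0 in the lymph node library and in marrow replicate 2. Neutrophil markers, which should be absent from the sort, summed to 1 UMI in the lymph node library, 1052 and 1298 UMIs in the VQ marrow libraries, and 13 UMIs in the wild-type library, with 2 or more in 0 lymph node cells, 7 and 4 VQ marrow cells and 2 wild-type cells. Of the 10 neutrophil markers, 1 had UMIs in the lymph node library (S100a9 was at 0), 10 and 9 in VQ marrow and 4 in the wild type. T and NK cell markers summed to 50 UMIs in VQ lymph node, 94 and 29 in VQ marrow and 7 in wild-type marrow, with 5, 8 and 7, and 5 of 11 genes seen. MHC class II genes, which B cells and young plasma cells carry, summed to 131 unscaled CPM (UMIs per 1000000 UMIs) in VQ lymph node, 144 and 158 in VQ marrow and 3941 in wild-type marrow, with 4 of 5 genes seen in each library and Ciita at 0 in all. B cell markers summed to 530 unscaled CPM in VQ lymph node, 455 and 367 in VQ marrow and 951 in wild-type marrow, with 1, 3 and 3, and 6 of 9 genes seen; most of it was Cd79b, Pax5 was at 0 in all, and Ms4a1 had UMIs in 11.3% of wild-type cells. B cell precursor markers summed to 1.24 unscaled CPM in VQ lymph node, 19.1 and 18.0 in VQ marrow and 157 in wild-type marrow, with 1, 2 and 2, and 5 of 7 genes seen, and Vpreb3 had UMIs in 13.2% of wild-type cells. With the cells that carried listed markers of other types left out, 24 of them wild-type, 9 of the 10 genes were called lower in VQ marrow than in wild-type marrow. The B cell and MHC class II lists were not part of that filter. Of the 106 gated wild-type cells, 54 had 2 or more UMIs of the B cell list and 89 of the class II list. The lists of the filter held Bst2, seen in 77.3% of lymph node, 54.0% and 38.8% of VQ marrow and 33.0% of wild-type cells. The Jchain gate fell in a gap in VQ marrow replicate 2, where the nearest cells had 2.69% and 5.39%, and between cells at 4.54% and 5.93% in replicate 1 and at 4.98% and 5.51% in the wild type. Because the gate takes opposite sides of Jchain in the 2 genotypes, genotype and gate cannot be told apart in the comparison with wild type, and values for the other side of the gate are given further on.

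VQ marrow myeloma cells had less of nearly the whole class I set than wild-type marrow plasma cells. The light chain B2m was 12.0-fold lower, the tapasin gene Tapbp 6.28-fold lower and the heavy chain H2-K1 4.36-fold lower, while Psmb10 was not called. By edgeR's quasi-likelihood test on the summed counts, with Benjamini-Hochberg adjustment over 8286 genes, 9 of 10 genes fell and 0 rose at an adjusted p under 0.05. Over all genes tested, 12.8% were called lower and 17.1% higher. The median log2 fold change of the 10 genes was -1.36, against 0.20 over all genes tested. The 1 residual degree of freedom came from the VQ marrow pair, so the wild-type and lymph node libraries were assumed to vary like that pair. The fitted prior degrees of freedom were infinite, so the variation in each test was pooled over genes and not the gene's own. Each standard error (SE) below was computed back from the test.

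**Figure D1:**
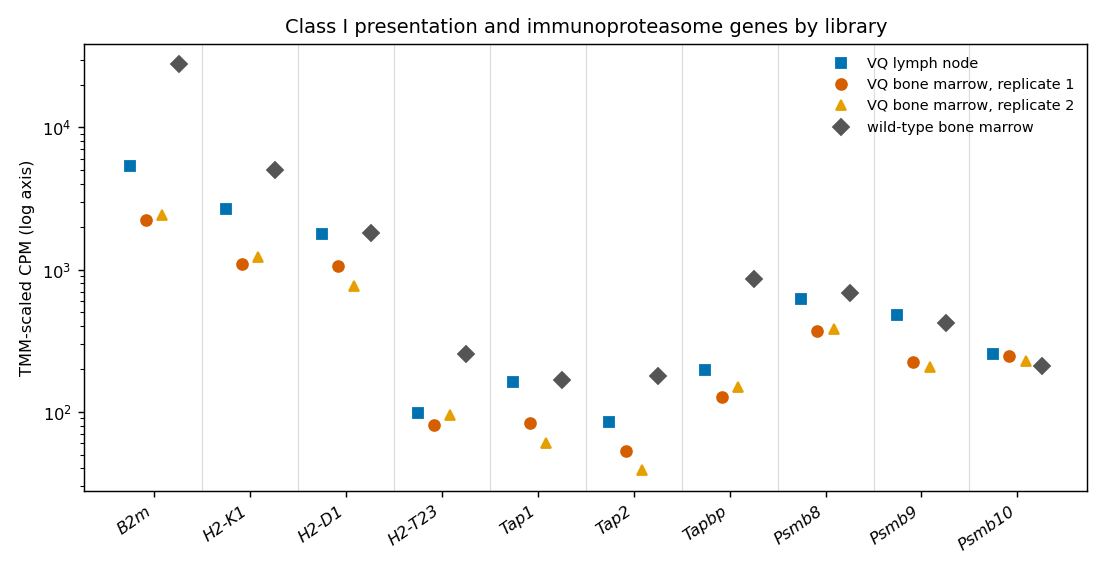
Level of each gene in each library, as CPM after trimmed-mean (TMM) scaling on a log axis, with 1 point per library summed over its gated cells. The VQ marrow points lie below the wild-type point for every gene but Psmb10, and the VQ lymph node point lies above both VQ marrow points for every gene.

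B2m stood at 2231 and 2404 TMM-scaled CPM in the VQ marrow libraries, against 27781 CPM in wild-type marrow. That is 2317 ± 122 CPM over the VQ pair (SD, n = 2), and the log2 fold change was -3.59 (SE 0.10, edgeR adjusted p = 2.38e-245). The libraries do not overlap, and B2m had the largest fold of the set. H2-K1, a classical heavy chain that presents to CD8 T cells, had 1101 and 1220 CPM in VQ marrow, against 5050 CPM in wild-type marrow (log2 fold change -2.13, SE 0.13, edgeR adjusted p = 2.36e-60). H2-D1, the other classical heavy chain, had 1054 and 764 CPM in VQ marrow, against 1809 CPM in wild-type marrow (log2 fold change -0.98, SE 0.15, edgeR adjusted p = 1.05e-09). So the heavy chains fell too, by less than the light chain, and H2-D1 showed the widest gap between the VQ marrow libraries among the heavy chains. H2-T23 encodes Qa-1, a non-classical molecule that shows leader peptides to NK cell receptors. Its level was 81.1 and 94.7 CPM in VQ marrow, against 257 CPM in wild-type marrow (log2 fold change -1.58, SE 0.29, edgeR adjusted p = 9.34e-07). Of its last 400 bases, 36.2% of the 50-base words also occur in other genes' transcripts, as do 12.3% for H2-D1 and 0.570% for H2-K1, so reads of these 3 genes are uncertain where the authors' counting could split them.

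The peptide supply genes divided by size of change. Tapbp, which bridges class I to the transporter, had 128 and 148 CPM in VQ marrow, against 854 CPM in wild-type marrow (log2 fold change -2.65, SE 0.21, edgeR adjusted p = 1.80e-34). The transporter subunits fell by less. Tap1 had 83.8 and 60.3 CPM in VQ marrow, against 167 CPM in wild-type marrow (log2 fold change -1.14, SE 0.33, edgeR adjusted p = 0.0039). Tap2 had 53.2 and 38.7 CPM in VQ marrow, against 179 CPM in wild-type marrow (log2 fold change -1.89, SE 0.36, edgeR adjusted p = 2.25e-06). Both transporter genes rest on few UMIs in the wild-type library, 28 for Tap1 and 30 for Tap2, and no VQ marrow library reached the wild-type level of either.

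Of the immunoproteasome subunits, Psmb8 (the chymotrypsin-like β5i) and Psmb9 (β1i) fell, and Psmb10 (β2i) was not called. Psmb8 had 370 and 381 CPM in VQ marrow, against 681 CPM in wild-type marrow (log2 fold change -0.86, SE 0.19, edgeR adjusted p = 0.000103). Psmb9 had 223 and 207 CPM in VQ marrow, against 418 CPM in wild-type marrow (log2 fold change -0.95, SE 0.23, edgeR adjusted p = 0.000304). Psmb10 had 245 and 226 CPM in VQ marrow, against 209 CPM in wild-type marrow (log2 fold change 0.18, SE 0.27, edgeR adjusted p = 0.652). Psmb10 is the gene of the set whose VQ marrow values lay above the wild-type value, and the gap was smaller than its SE. The constitutive subunits that the inducible ones replace, Psmb5, Psmb6 and Psmb7, gave 0 of 3 calls, with log2 fold changes of 0.41, -0.15 and 0.83 (SE 0.86, 0.26 and 0.43) and edgeR adjusted p-values of 0.759, 0.714 and 0.145.

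**Figure D2:**
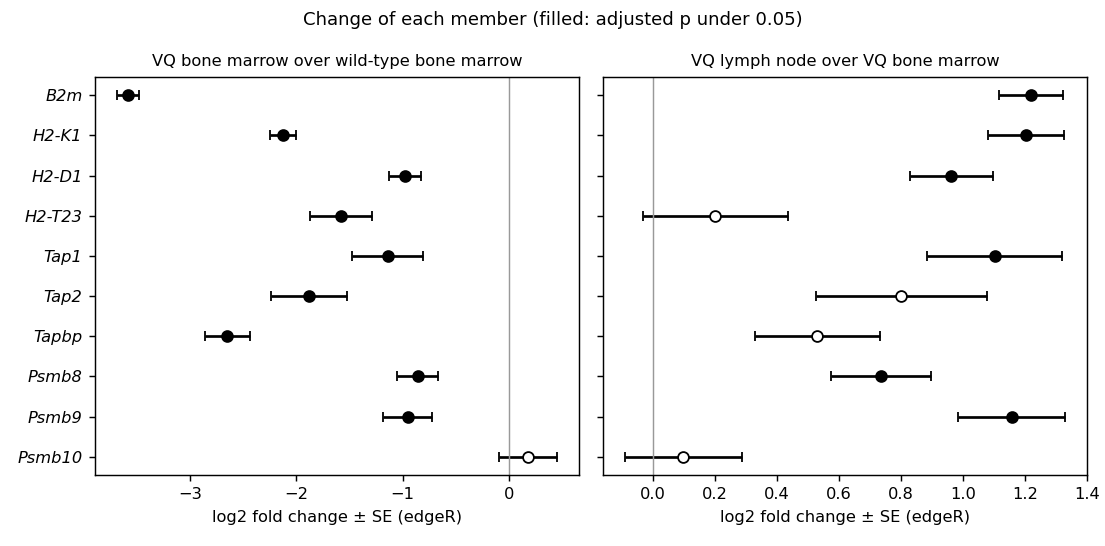
Log2 fold change of each gene with its SE, for VQ marrow over wild-type marrow on the left and VQ lymph node over VQ marrow on the right; filled points passed an edgeR adjusted p of 0.05. In the left panel 9 of 10 points are filled and below 0, from -3.59 for B2m to -0.86 for Psmb8, and in the right panel 6 of 10 are filled and above 0.

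B2m, H2-K1 and Tapbp were called lower under 13 of 13 other settings that gave a test, with log2 fold changes of -3.78 to -2.89, -2.33 to -1.38 and -3.06 to -1.98. The calls of the other genes depended on settings: DESeq2 called 4 of the 10 genes, as did a test with the coefficient of variation between libraries preset to 0.3, and scaling by library totals in place of TMM turned the split of all genes from 1420 higher and 1058 lower into 2141 higher and 713 lower while leaving 9 of the 10 genes lower.

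The wild-type comparison also depended on which wild-type cells were used. Within the gated wild-type cells, 37 had no UMI of H2-Aa, H2-Ab1 or H2-Eb1 and 69 had at least 1. In unscaled CPM, B2m was at 18359 in the cells without class II UMIs and 24581 in those with them, and H2-K1 at 3054 and 4581. Of the inducible subunits, Psmb8 was at 380 and 630 CPM, Psmb9 at 207 and 397 CPM and Psmb10 at 155 and 178 CPM. Tapbp was at 863 and 637 CPM, higher in the cells without class II UMIs. The counting intervals of both kinds of cell overlapped for Psmb8, Psmb9, Psmb10 and Tapbp, and did not for B2m or H2-K1. Against the wild-type cells without class II UMIs alone, 5 of 10 genes were called lower in VQ marrow, with log2 fold changes of -2.97 for B2m, -1.38 for H2-K1, -0.61 for H2-D1, -1.95 for Tap2 and -2.65 for Tapbp. In that comparison Psmb8 stood at -0.00030 and Psmb9 at 0.079, neither called, and the median over all genes was 0.58. The wild-type sum without class II UMIs held 57956 UMIs, against 204002 for all gated wild-type cells. It had 8 UMIs of Tap1, 10 of H2-T23, 12 of Psmb9 and 22 of Psmb8, so tests of these genes rest on few counts. How much of each fall belongs to the class II positive cells was not tested further.

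Both sides of the Jchain gate can be compared inside each VQ marrow library, which holds tissue and library fixed. The 226 and 170 VQ marrow cells under 5% Jchain had B2m at 2368 and 2513 unscaled CPM, against 14763 and 20910 CPM in the 19 and 18 cells at 5% or more. In the cells under the gate B2m was therefore 6.23-fold lower in replicate 1 (95% counting interval 5.53 to 7.0) and 8.32-fold lower in replicate 2 (7.25 to 9.52). Intervals of this kind, and all intervals on counts and shares here, cover counting error only. Tapbp was 5.05-fold lower (2.75 to 8.61) and 5.57-fold lower (2.66 to 10.6) under the gate. H2-K1 was 2.15-fold lower (1.61 to 2.82) and 2.03-fold lower (1.39 to 2.89). H2-D1 had ratios of 1.44 (0.895 to 2.48) and 0.924 (0.510 to 1.87), intervals that both include 1. The cells above the gate were shallow, with medians of 1064 and 699.5 UMIs, and whether they are VQ cells or the recipients' own was not tested. In wild-type marrow the 57 cells under the gate had B2m at 11934 unscaled CPM, against 22814 CPM in the 106 cells above it. The cell type of the 57 was not tested, and they need not be plasma cells. The summed level of these 57 cells lay above those of the VQ marrow cells under the same gate, while single cells overlapped. B2m was as low as 0.187% of UMIs in these wild-type cells of at least 500 UMIs. It was as high as 1.87% and 1.68% in the VQ marrow cells of at least 1000 UMIs. The highest cell of replicate 1 had 1443 UMIs and Jchain at 0%, and that of replicate 2 had 1011 UMIs and Jchain at 0.0989%. Whether such cells are myeloma cells was not tested. With every cell kept and no gate, the 57 wild-type cells included, B2m was lower in VQ marrow by a log2 fold change of -2.89 and Tapbp by -1.98. In that setting 9 of 10 genes were called.

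**Figure D3:**
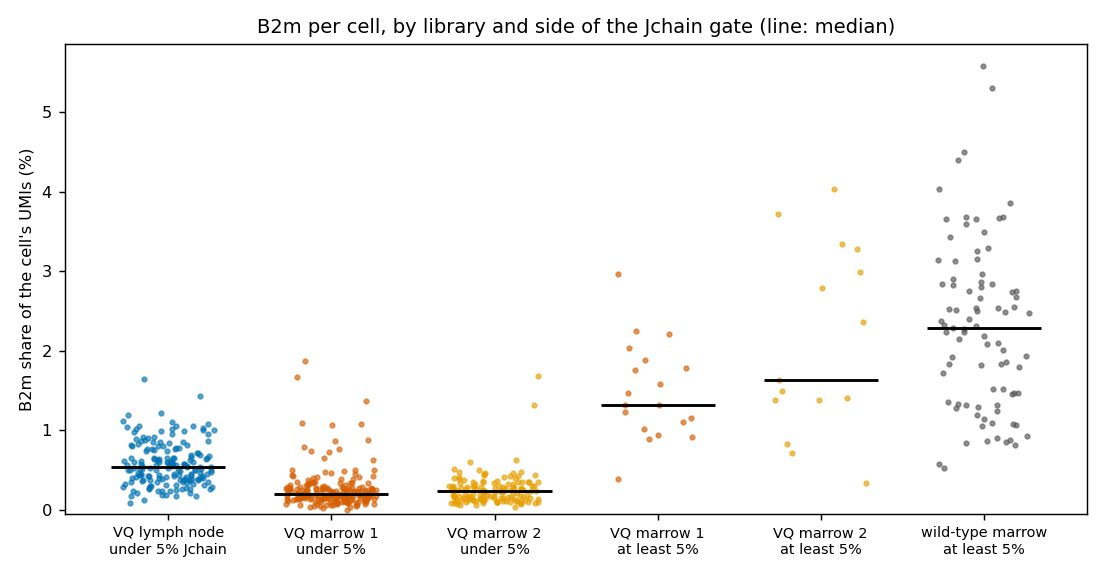
B2m as a percentage of the UMIs of each cell, 1 point per cell and a line at the median, for VQ cells under 5% Jchain, VQ marrow cells at 5% or more, and wild-type cells at 5% or more; cells under the gate and wild-type cells have at least 1000 UMIs and VQ marrow cells above it at least 500. Medians were 0.538% in VQ lymph node, 0.196% and 0.231% in VQ marrow under the gate, 1.32% and 1.63% in VQ marrow above it, and 2.29% in wild-type marrow.

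Cell by cell, most gated VQ marrow cells lay below every gated wild-type cell in B2m. Among gated cells of at least 1000 UMIs, the middle 50% of cells held B2m at 0.134% to 0.277% and 0.137% to 0.319% of their UMIs in VQ marrow replicates 1 and 2, against 1.40% to 2.85% in wild-type marrow. The lowest wild-type cell stood at 0.521%. That level was reached by 91 of 171 VQ lymph node cells (53.2%) and by 14 and 4 VQ marrow cells of replicates 1 and 2 (6.86% and 2.90%). The highest of the 14 had Jchain at 0%, and whether the VQ marrow cells that reached it are myeloma cells was not tested. Of all gated VQ marrow cells, 16 of 226 and 14 of 170 had under 2 UMIs of plasma cell markers other than Jchain. No gated VQ cell of that depth reached the wild-type median. B2m and the summed heavy chains correlated positively over cells thinned to 1000 UMIs, with Spearman's rho of 0.394 in VQ lymph node, 0.289 and 0.194 in VQ marrow, and 0.606 in wild-type marrow, over at least 87 cells each, as a description of cells that share a library and a depth. In the same order, rho of B2m was 0.062, 0.108, -0.142 and 0.192 with the summed immunoproteasome subunits. With the summed peptide supply genes it was 0.138, 0.192, -0.016 and -0.022. Those sums had means of only 0.255 to 1.33 UMIs per cell.

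The share of cells with a UMI was also compared at matched depth. After thinning each cell to 1000 UMIs, H2-K1 was seen in 93.0% of VQ lymph node cells, 62.7% and 73.2% of VQ marrow cells and 94.3% of wild-type cells (95% Clopper-Pearson intervals 88.1 to 96.3, 55.7 to 69.4, 65.0 to 80.4 and 87.1 to 98.1). Unthinned, it was seen in 97.8% of VQ lymph node cells, 89.8% and 88.8% of VQ marrow cells and 92.5% of wild-type cells. Tapbp was seen in 19.3% of VQ lymph node cells, 10.3% and 13.0% of VQ marrow cells and 51.7% of wild-type cells (intervals 13.7 to 26.0, 6.49 to 15.3, 7.92 to 19.8 and 40.8 to 62.6), and unthinned in 48.6% of VQ lymph node cells, 42.9% and 32.4% of VQ marrow cells and 63.2% of wild-type cells. The intervals of both VQ marrow libraries lay below that of the wild type for both genes, and the VQ lymph node interval did so for Tapbp alone. B2m was near saturation, in 97.7% of VQ lymph node cells, 87.7% and 91.3% of VQ marrow cells and 100% of wild-type cells, and unthinned in 98.9% of VQ lymph node cells, 96.0% and 95.9% of VQ marrow cells and 100% of wild-type cells. No cell type in these tables should lack class I, so no share of background from free RNA could be set beside these.

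VQ lymph node cells had more of the class I set than VQ marrow cells of the same genotype. The light chain and both classical heavy chains were 1.95-fold to 2.33-fold higher, with Tap1, Psmb8 and Psmb9, while H2-T23, Tap2, Tapbp and Psmb10 were not called. By edgeR, 6 of 10 genes rose and 0 fell, against 1.86% of all genes tested called higher and 1.27% called lower. The median log2 fold change of the 10 genes was 0.88, and over all genes tested it was -0.016. This comparison shares the VQ marrow libraries with the one above, so the directions in the 2 comparisons are not independent.

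B2m stood at 5390 CPM in VQ lymph node, against 2231 and 2404 CPM in VQ marrow (log2 fold change 1.22, SE 0.10, edgeR adjusted p = 7.18e-30). H2-K1 had 2666 CPM in VQ lymph node, against 1101 and 1220 CPM in VQ marrow (log2 fold change 1.20, SE 0.12, edgeR adjusted p = 7.33e-20). H2-D1 had 1790 CPM in VQ lymph node, against 1054 and 764 CPM in VQ marrow (log2 fold change 0.96, SE 0.13, edgeR adjusted p = 1.71e-10). Light and heavy chains moved by 1.95-fold to 2.33-fold here. H2-T23 had 98.8 CPM in VQ lymph node, against 81.1 and 94.7 CPM in VQ marrow, within the reach of its SE (log2 fold change 0.20, SE 0.23, edgeR adjusted p = 0.813).

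Tap1 had 163 CPM in VQ lymph node, against 83.8 and 60.3 CPM in VQ marrow (log2 fold change 1.10, SE 0.22, edgeR adjusted p = 4.33e-05). Psmb9, which shares its start region with Tap1, had 482 CPM in VQ lymph node, against 223 and 207 CPM in VQ marrow (log2 fold change 1.16, SE 0.17, edgeR adjusted p = 4.71e-09). Psmb8 had 624 CPM in VQ lymph node, against 370 and 381 CPM in VQ marrow (log2 fold change 0.73, SE 0.16, edgeR adjusted p = 0.000423). These neighbours on chromosome 17 were above both VQ marrow libraries in the lymph node. Tap2, next to Psmb8, had 84.4 CPM in VQ lymph node, against 53.2 and 38.7 CPM in VQ marrow, and missed the threshold (log2 fold change 0.80, SE 0.27, edgeR adjusted p = 0.0868). Tapbp had 196 CPM in VQ lymph node, against 128 and 148 CPM in VQ marrow, and also missed it (log2 fold change 0.53, SE 0.20, edgeR adjusted p = 0.157). Psmb10 had 254 CPM in VQ lymph node, against 245 and 226 CPM in VQ marrow, a difference below its SE (log2 fold change 0.10, SE 0.19, edgeR adjusted p = 0.891).

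The lymph node result rests on 1 library. DESeq2 called 2 of the 10 genes higher, B2m and H2-K1, and with the coefficient of variation preset to 0.3 none of the 10 was called, the adjusted p of B2m then being 0.932. Neutrophil marker counts differed between the same libraries, as given above. With the 101 lymph node cells and 100 and 41 VQ marrow cells that carried listed markers of other cell types left out, 6 of 10 genes were called higher. In the lymph node library Bst2 gave 378 of 379 dendritic cell UMIs, and Cd68 76 of 77 monocyte and macrophage UMIs. Bst2 was seen in 77.3% of lymph node cells, so the cells left out are not shown to be of other types. A narrower marker list without Bst2, Cd68 and Gzma, chosen after seeing the data, left out 1 lymph node cell and 22 and 10 VQ marrow cells. It also gave 6 of 10.

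Between VQ lymph node and wild-type marrow there was 1 library on each side, and the values were set side by side without a test. B2m and Tapbp were far below wild type in the lymph node cells as well, and 6 of the 10 genes, H2-K1, H2-D1, Tap1 and the 3 immunoproteasome subunits, lay within 2-fold of it. In VQ lymph node 4 of 10 genes were more than 2-fold lower and 0 were more than 2-fold higher than in wild-type marrow. Of 6635 genes with at least 20 UMIs over both sums, 15.7% were more than 2-fold lower and 26.5% more than 2-fold higher. B2m was 5.15-fold lower in VQ lymph node (95% counting interval 4.95 to 5.37) and Tapbp 4.35-fold lower (3.45 to 5.47). H2-T23 was 2.60-fold lower (1.75 to 3.80), Tap2 2.12-fold lower (1.34 to 3.30) and H2-K1 1.89-fold lower (1.75 to 2.05). For the other genes the ratio of VQ lymph node to wild-type marrow was 0.989 for H2-D1 (0.874 to 1.12), 0.973 for Tap1 (0.644 to 1.52), 0.917 for Psmb8 (0.748 to 1.13), 1.15 for Psmb9 (0.893 to 1.51) and 1.22 for Psmb10 (0.848 to 1.79). Those 5 intervals all include 1, so a difference was not detectable at this depth.

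The inducible share of each catalytic pair was taken from transcripts within each library, without scaling between libraries. It does not give the make-up of assembled proteasomes, as no protein level enters it. A UMI marks the 3′ end of a transcript, so no length correction was applied, though capture may differ between genes. Psmb9 made up 66.9% of Psmb9 and Psmb6 UMIs in VQ lymph node, 49.7% and 47.5% in VQ marrow and 62.5% in wild-type marrow (95% Clopper-Pearson intervals 63.0 to 70.7, 45.2 to 54.2, 40.5 to 54.7 and 52.9 to 71.5). The VQ lymph node interval lay above both VQ marrow intervals, and the wild-type interval overlapped all 3, those of VQ marrow at their upper ends. Psmb8 outnumbered Psmb5 in every library, with shares of 96.8% in VQ lymph node, 93.2% and 95.7% in VQ marrow and 97.4% in wild-type marrow. Psmb5 had only 17 UMIs in VQ lymph node, 30 and 8 in VQ marrow and 3 in wild-type marrow. Psmb6 had 198, 250, 106 and 42 in the same order, so low capture of Psmb5 may raise the Psmb8 share. Psmb10 made up 69.9% of Psmb10 and Psmb7 UMIs in VQ lymph node, 71.8% and 64.4% in VQ marrow and 77.8% in wild-type marrow, and all 4 intervals overlapped. Over the 3 pairs together the inducible share was 78.7% in VQ lymph node, 70.6% and 68.7% in VQ marrow and 79.9% in wild-type marrow (76.5 to 80.8, 68.1 to 73.1, 64.7 to 72.6 and 74.7 to 84.5). Both VQ marrow intervals lay below the other 2 there. The wild-type share is over all gated wild-type cells, and Psmb8 and Psmb9 stood higher in those with class II UMIs, as given above. A share for the wild-type cells without class II UMIs was not taken.

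**Figure D4:**
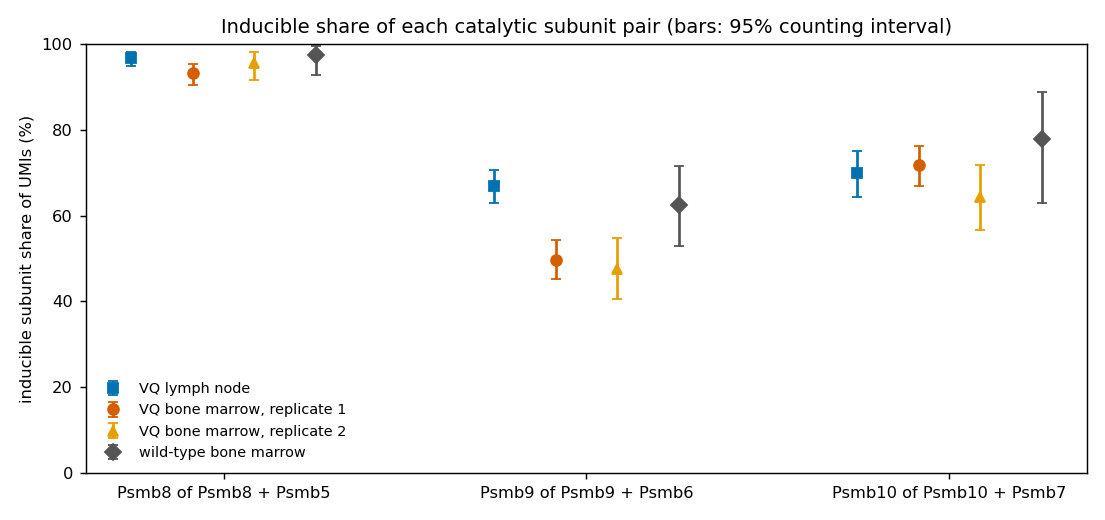
Inducible subunit as a percentage of the UMIs of its catalytic pair, per library, with 95% Clopper-Pearson counting intervals. The Psmb9 share is 66.9% in VQ lymph node and 49.7% and 47.5% in VQ marrow, and the Psmb8 share is above 90% in every library.

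Of 27 other genes of the pathway, taken from a list, 21 were tested, and in VQ marrow against wild-type marrow 4 rose and 4 fell by edgeR. Over all genes tested 17.1% were called higher and 12.8% lower, so the counts of this list lay near the background. Its median log2 fold change was 0.064, against 0.20 over all genes tested. Psme2, a subunit of the interferon-inducible PA28 cap of the proteasome, fell to 107 and 73.2 CPM in VQ marrow, against 215 CPM in wild-type marrow (log2 fold change -1.18, SE 0.30, edgeR adjusted p = 0.000823). Ide, a peptidase of the cytosol known for degrading insulin, fell to 109 and 123 CPM in VQ marrow, against 340 CPM in wild-type marrow (log2 fold change -1.57, SE 0.26, edgeR adjusted p = 5.38e-08). Rfx5, a subunit of the RFX complex at MHC promoters, fell to 14.4 and 17.2 CPM in VQ marrow, against 65.7 CPM in wild-type marrow (log2 fold change -2.09, SE 0.63, edgeR adjusted p = 0.0055). Their partner subunits did not fall alike. Rfxap of RFX was called higher, on 3 UMIs in wild-type marrow (log2 fold change 1.96, SE 0.67, edgeR adjusted p = 0.0152). Rfxank of RFX and Psme1 of PA28 were not called (log2 fold changes -0.65 and -0.19, SE 0.70 and 0.26, edgeR adjusted p = 0.514 and 0.615). The proteasome genes Pomp and Psme3 rose. Pomp, the assembly chaperone of all proteasomes, had 378 and 368 CPM in VQ marrow, against 173 CPM in wild-type marrow (log2 fold change 1.11, SE 0.27, edgeR adjusted p = 0.000319). Psme3, the nuclear PA28γ cap, had 209 and 226 CPM in VQ marrow, against 77.6 CPM in wild-type marrow (log2 fold change 1.47, SE 0.36, edgeR adjusted p = 0.000361). H2-Q10, a class I gene whose product is secreted in liver, had 31 and 22 UMIs in VQ marrow and 0 in wild-type marrow, which makes it at least 2.10-fold higher against a floor of 3 counts in the wild-type library (edgeR adjusted p = 0.0059); as a class I relative its reads are uncertain. For Psme2, Ide, Rfx5, Pomp, Psme3 and H2-Q10, the VQ marrow values lay on 1 side of the wild-type value. Nlrc5, the class I transactivator, had 15 and 7 UMIs in VQ marrow and 4 in wild-type marrow and was not called (log2 fold change -0.76, SE 0.88, edgeR adjusted p = 0.544). The calls of Psme2 and Pomp were lost under 4 of 13 other settings each, those of Psme3 and Ide under 3 and 1, that of H2-Q10 under 4 of 13 and that of Rfx5 under 4 of 11.

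In VQ lymph node against VQ marrow, 2 of those 21 genes rose and 0 fell, against 1.86% and 1.27% of all genes tested, with a median log2 fold change of 0.42, against -0.016 over all genes. H2-Q4, the gene of the soluble Qb-1 molecule, had 36.2 CPM in VQ lymph node, against 5.41 and 15.1 CPM in VQ marrow (log2 fold change 2.09, SE 0.51, edgeR adjusted p = 0.0029). The call was lost under 3 of 10 other settings, and the log2 fold change was 1.25 without VQ marrow replicate 1 and 2.70 without replicate 2. Psme2 had 155 CPM in VQ lymph node, against 107 and 73.2 CPM in VQ marrow (log2 fold change 0.71, SE 0.22, edgeR adjusted p = 0.0357), a call that held under 1 of 12 other settings. Nlrc5 had 27 UMIs in VQ lymph node and was not called (32.5 CPM, against 13.5 and 15.1 CPM in VQ marrow, log2 fold change 1.21, SE 0.46, edgeR adjusted p = 0.161). The constitutive subunits Psmb5, Psmb6 and Psmb7 again gave 0 of 3 calls, with log2 fold changes of -0.22, 0.075 and 0.041 (SE 0.46, 0.19 and 0.22; edgeR adjusted p = 0.899, 0.924 and 0.976).

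Genes that carry the interferon signal to class I promoters were lower in VQ marrow than in wild-type marrow where called, and some were higher in VQ lymph node than in VQ marrow. Of 15 listed, 14 were tested, and in VQ marrow against wild-type marrow 7 fell and 0 rose, against the 12.8% and 17.1% of all genes tested (median log2 fold change -1.25). Irf1, an interferon-induced factor that binds the interferon regulatory factor core, had 15.3 and 12.9 CPM in VQ marrow, against 71.6 CPM in wild-type marrow (log2 fold change -2.28, SE 0.58, edgeR adjusted p = 0.000713). Irf8, a family member of B and myeloid cells, had 6.31 and 10.8 CPM in VQ marrow, against 197 CPM in wild-type marrow (log2 fold change -4.65, SE 0.48, edgeR adjusted p = 6.26e-20). Irf8 is among the genes that part the wild-type cells: against those without class II UMIs it stood at -2.12 and was not called. Tyk2, a kinase of the type I interferon receptor, had 11.7 and 12.9 CPM in VQ marrow, against 113 CPM in wild-type marrow (log2 fold change -3.21, SE 0.54, edgeR adjusted p = 6.00e-08), a call that held under 13 of 13 other settings. The Irf1 call was lost under 2 of 12. These calls rest on few UMIs and on 1 wild-type library in every setting. Irf1 had 17 and 6 UMIs in VQ marrow and 12 in wild-type marrow. In the same order Irf8 had 7, 5 and 33, and Tyk2 had 13, 6 and 19.

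In VQ lymph node against VQ marrow, 4 of the 14 rose and 1 fell, against 1.86% and 1.27% of all genes tested (median log2 fold change 0.32). Irf1 had 63.9 CPM in VQ lymph node, against 15.3 and 12.9 CPM in VQ marrow (log2 fold change 2.12, SE 0.38, edgeR adjusted p = 3.49e-06). It stood above each VQ marrow library in the lymph node. Socs1, the feedback inhibitor that interferon induces, had 23 UMIs in VQ lymph node, against 5 and 1 in VQ marrow and 0 in wild-type marrow (log2 fold change over VQ marrow 2.81, SE 0.76, edgeR adjusted p = 0.0113). Ifngr1, a chain of the interferon-gamma receptor, was the gene that fell, to 12.1 CPM in VQ lymph node, against 38.8 and 40.9 CPM in VQ marrow (log2 fold change -1.70, SE 0.47, edgeR adjusted p = 0.0147). These genes rest on few UMIs, at most 53 in any library. The Irf1 call was lost under 2 of 10 other settings, the Socs1 call under 1 of 9, and the Ifngr1 call under 6 of 10. Against wild-type marrow, without a test, VQ lymph node had Irf1 at a ratio of 0.892 (95% counting interval 0.470 to 1.83).

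The genes whose levels ran most like B2m over the 4 libraries, among 2439 others with a mean of at least 50 UMIs, were Srgn, Shisa5, Nfkbia, Junb and Prdm1, with root mean square distances in centred log2 CPM of 0.219 to 0.401. Srgn, the granule proteoglycan serglycin, had 377 CPM in VQ lymph node, 151 and 192 CPM in VQ marrow and 1457 CPM in wild-type marrow. Prdm1, the plasma cell transcription factor Blimp-1, had 72.3 CPM in VQ lymph node, 63.1 and 43.0 CPM in VQ marrow and 436 CPM in wild-type marrow. The likeness is over 4 libraries and is a description; the order of the libraries follows from how these genes were chosen.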

How the data were processed

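The authors deposited 1 table of UMI counts per library, with cells in rows and 24421 genes in columns; the file names mark the cells as those that passed a knee filter. The build is mm10 per the submitters' processing notes; aligner, counting tool and use of strand are not given in the sources used here. The genes and lists were chosen with earlier results of these data known. Counts were summed per library over cells gated on Jchain, filtered by filterByExpr, scaled by TMM and tested with edgeR 4.0.16 (R 4.3.3) in 1 fit of 3 group means over 8286 genes; the common coefficient of variation was 0.0928. A gene was called at a Benjamini-Hochberg adjusted p under 0.05. The SE is the absolute log2 fold change over the square root of F. The VQ marrow libraries are numbered as replicates in the labels; they differed beyond counting noise (chi-square per degree of freedom 1.57 over 9020 genes), so they were not taken for repeat deposits of 1 library, which does not show that they are separate animals. DESeq2 1.42.0 and other gates, scalings and cell filters were alternatives. No doublet caller was run, and no batch is named in the labels, so library, depth and group cannot be told apart for the single libraries. Median UMIs per gated cell were 3978 in VQ lymph node, 4700 and 2646 in VQ marrow and 1999 in wild-type marrow. For shares and for the setting with thinned cells, cells were thinned to 1000 UMIs at random with a fixed seed. Cells with fewer UMIs were left out of both. Ratios carry exact conditional binomial 95% intervals. Genes named from a list are the 3 with the smallest adjusted p in each direction, with Nlrc5, Irf1 and the constitutive subunits always named; likeness to B2m gave 5 more. Rfxap, Rfxank and Psme1 are named as partner subunits of Rfx5 and Psme2. A gene of the interferon list is counted with it and not reported here.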

Additional observations from a re-analysis of the deposited data

How the results depend on the processing

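In VQ marrow against wild-type marrow, genes of the set called lower numbered 9 in the main analysis, 4 with DESeq2, 4 with the coefficient of variation preset to 0.3 and 5 with wild-type cells without class II UMIs; genes called over the whole table numbered 489, 979 and 1030 under those settings and 921 with cells thinned to 1000 UMIs. The median log2 fold change of the set was -0.997 by library totals, which moved the median of all genes to 0.56, -1.15 with all cells and no gate, -0.92 with wild-type cells without class II UMIs and -1.18 with thinned cells. Psmb9 turned to 0.079 against wild-type cells without class II UMIs. Without VQ marrow replicate 1 and without replicate 2 the medians were -1.49 and -1.32; those fits had no residual degree of freedom and gave no test.

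In VQ lymph node against VQ marrow, genes of the set called numbered 6, 2 with DESeq2 and 0 with the preset; with the preset, edgeR's likelihood ratio test still called 53 genes in the table. Genes called over the table were 21 with DESeq2, 161 with the gate at 2%, 107 with all cells, 91 without cells carrying markers of other types and 64 with thinned cells. Psmb7, not called, was at -0.18 without VQ marrow replicate 1 and at 0.18 without replicate 2. The medians without a replicate were 0.76 to 1.12. Against wild-type marrow, thinned VQ lymph node cells had 2 of 10 genes past 2-fold in place of 4. The narrower marker filter and the filter on plasma cell markers were chosen after seeing the data; both kept 9 and 6 calls in the 2 comparisons. No paired analysis was possible because the groups share fewer than 2 replicate numbers. Depth limits Tap1, Tap2, Psmb10 and H2-T23, each with 43 or fewer UMIs in the wild-type library.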
